A study of Mus musculus with 8 samples.

Results

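Loss of the second working copy of Axl was examined in the mammary cells with the least reporter activity, by setting the 2 arrays titled Axl LacZ/LacZ Low against the 2 arrays titled Axl LacZ/+ Low. These are 4 of the 8 arrays of the series and were chosen by their titles alone. The glands came from nulliparous mice aged 16 weeks of the strain B6.129P2-Axl tm1Dgen, in which lacZ sits in the Axl gene, either heterozygous (Axl LacZ/+) or homozygous (Axl LacZ/LacZ). Every group therefore carried at least 1 disrupted allele, and the controls are heterozygous glands, not wild-type ones. Cells were stained with FDG, a substrate that fluoresces once the lacZ enzyme cleaves it, and the dimmest 65% of single viable cells lacking CD45, CD31 and CD11b formed the FDG-low gate. The brightest 5% formed the FDG-high gate, represented by the other 4 arrays. Each sample pooled glands from several mice of a genotype, and the labels do not state whether replicates were separate pools. The p-values therefore reflect only how far these arrays spread, which may be partly technical. The gate was a share of each genotype's own cells, and homozygous cells carry lacZ on both alleles, so an FDG-low cell need not be the same kind of cell in both genotypes.

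Axl, Tyro3 and Mertk are the TAM receptors, tyrosine kinases activated by the ligands Gas6 and protein S (Pros1), which bridge them to phosphatidylserine on dying cells. The mammary gland holds a branched epithelium of inner luminal and outer basal cells, embedded in a stroma of fibroblasts, fat, vessels and immune cells. Axl is known chiefly from mesenchymal, vascular and myeloid cells and from carcinoma cells with mesenchymal traits.

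Levels are log2 normalized probe intensities, and differences are homozygous minus heterozygous FDG-low on the log2 scale with their standard error from limma. A gene was called when its limma p, adjusted over 16593 genes by the Benjamini-Hochberg method, was below 0.05. Background on the 4 arrays lay between 6.12 and 6.20, the level exceeded by only the brightest odorant and pheromone receptor probes. Between 48.1% and 53.5% of probes exceeded it, the lower shares on the 2 homozygous arrays. The 2 homozygous FDG-low arrays correlated at r = 0.980 across genes, the highest of any pair of arrays, and the 2 heterozygous ones at 0.963. Across the genotypes the mean r was 0.888. The labels give all 8 arrays the same chip number with successive positions, and array position and group cannot be told apart.

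Axl itself was read by a single probe. Whether that probe lies before or after the lacZ insertion was not determined here. It measured 8.44 and 7.97 on the heterozygous FDG-low arrays and 6.24 and 6.39 on the homozygous ones. The FDG-low cells of heterozygous glands thus held Axl transcript well above background, although the gate was meant for AXL-negative cells. In homozygous cells the level was just above background. Axl fell by 1.89 ± 0.20 on the log2 scale (3.71-fold; limma adjusted p = 0.0066). That call was lost without homozygous FDG-low replicate 1 (limma adjusted p = 0.066) or replicate 2 (0.052). In FDG-high cells the Axl difference was -2.76, and the 2 differences were not separated by the interaction test (limma adjusted p = 0.22).

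Among the partners of Axl, the ligand gene Pros1 rose. It stood at 8.15 and 7.70 in heterozygous and at 9.73 and 9.58 in homozygous FDG-low cells, without overlap, a difference of 1.73 ± 0.21 (limma adjusted p = 0.0089). Non-overlap of 2 and 2 arrays was common, with 24.8% of all genes higher and 25.6% lower without overlap. The sister receptor Mertk measured 6.02 and 6.44 against 7.12 and 6.81, and its difference of 0.74 ± 0.17 just missed the threshold (limma adjusted p = 0.0504). Gas6 differed by 0.88 ± 0.38, and the feedback inhibitor Socs3 by 0.98 ± 0.32; neither was called. Tyro3 was below background on all 4 arrays. Of the 8 TAM genes measured, 1 was higher, 1 was lower and the median difference was 0.53, beside 0.00 over all genes.

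Of all 16593 genes, 1397 were called (8.42%). The 629 higher in homozygous FDG-low cells were 3.79% of genes, and the 768 lower were 4.63%. At an unadjusted p below 0.05 there were 3723 genes (22.4%), where 830 would be due under chance alone. The number called hung on every one of the 4 arrays. It was 542 without heterozygous replicate 1, 574 without heterozygous replicate 2, 121 without homozygous replicate 1 and 151 without homozygous replicate 2. All 1397 kept the sign of their difference in each of those 4 refits. They were selected for a difference on these same arrays, so the kept sign was largely fixed in advance and adds no support. Of 127 called genes named in the text besides Axl, 72 and 59 lost the call without heterozygous replicate 1 and 2, and 106 and 103 without homozygous replicate 1 and 2. The 20 that kept it without any single one of the 8 arrays were Wnt7b, Krt7, St14, Mansc1, Rbm47, Krt23, Nme7, Pkp3, Esrp1, Grhl2, Spint2, Ptn, Itgb6, Mbp and Ndufa4, which fell, and Gpr176, Mmp12, Dennd2a, Prg2 and Tnnt3, which rose. The plot of difference against adjusted p shows the genes described next at both edges.

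**Figure D1:**
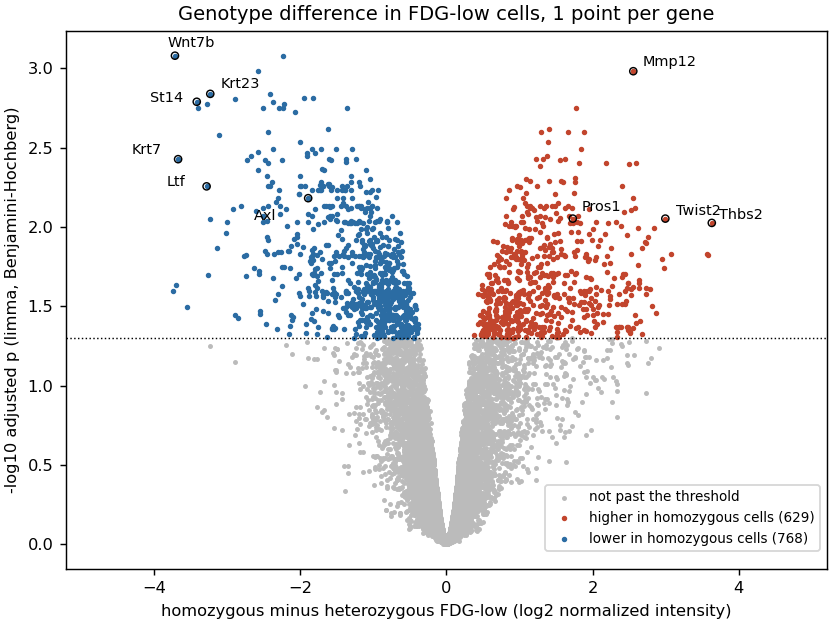
Each point is a gene, with its log2 difference between homozygous and heterozygous FDG-low cells (x axis) and the negative log10 of its limma adjusted p (y axis). Blue and red points passed the threshold (dotted line), 768 lower and 629 higher, with Wnt7b and Krt7 at the left edge and Thbs2 at the right.

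Most epithelial identity genes fell. Of 22 measured members of the general epithelial list, 17 fell, none rose and all 22 differences were negative, with a median of -1.62 against 0.00 for all genes. The simple-epithelium keratin gene Krt7 measured 10.57 and 10.54 in heterozygous but 6.75 and 7.03 in homozygous FDG-low cells. St14, which encodes the membrane serine protease matriptase, measured 10.03 ± 0.04 against 6.62 ± 0.11 (mean ± SD, n = 2 arrays). Both genes dropped from far above background to near it, Krt7 with a difference of -3.67 ± 0.29 and St14 of -3.41 ± 0.19 (limma adjusted p = 0.0037 and 0.0016). The luminal keratin gene Krt8 fell by 2.51 ± 0.29 on the log2 scale, its partner Krt18 by 2.19 and Krt19 by 2.45. Esrp1, the epithelial splicing regulator, measured 9.89 and 9.87 against 7.42 and 7.37, and the epithelial transcription factor Grhl2 fell by 1.93. Of the matriptase inhibitor genes, Spint2 fell by 1.94, and Spint1 was at least 1.52-fold lower, with both homozygous arrays below background.

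Genes of cell contacts were lower too. In the list of claudins, cadherins and junction proteins, 13 of 21 measured members fell and none rose, with a median of -1.50. This list shares members with the general epithelial list, Cldn3 and Pkp3 among them, so the counts of the lists overlap. Gjb2, which encodes the gap junction protein connexin 26, measured 9.87 and 10.87 in heterozygous and 6.34 and 6.92 in homozygous FDG-low cells, a difference of -3.74 ± 0.66 (limma adjusted p = 0.025), with -2.50 and -1.60 on its other probes. The tight junction gene Cldn3 measured 10.05 and 9.98 against 7.22 and 6.97. Pkp3, a desmosomal plaque gene, fell from 9.94 and 9.92 to 7.41 and 7.30, and Cxadr, a tight junction adhesion receptor, fell by 2.81 ± 0.30 on the log2 scale. Cdh1, which encodes the adherens junction protein E-cadherin, was an exception. Its levels were 9.93 and 10.51 in heterozygous and 10.11 and 9.91 in homozygous FDG-low cells, which overlap, and its difference of -0.21 was not called.

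The promoters of 3 of the genes that fell and 1 that rose are shown because the transcription factors Zeb1, Zeb2 and Snai1, described further on, are known to bind the letters CACCTG in epithelial promoters, which the other strand reads as CAGGTG. Each sequence is the 250 bases before the annotated start, from RefSeq, build GRCm38.p6, written 5′ to 3′ along the gene's strand, with either form of the motif in capitals.
Gjb2, chr14:57104703-57104952, minus strand: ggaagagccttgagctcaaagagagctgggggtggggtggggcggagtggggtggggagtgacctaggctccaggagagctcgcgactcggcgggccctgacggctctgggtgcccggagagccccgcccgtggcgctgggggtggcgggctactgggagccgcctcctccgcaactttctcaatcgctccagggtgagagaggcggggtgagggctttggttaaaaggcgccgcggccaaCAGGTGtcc
Krt7, chr15:101412153-101412402, plus strand: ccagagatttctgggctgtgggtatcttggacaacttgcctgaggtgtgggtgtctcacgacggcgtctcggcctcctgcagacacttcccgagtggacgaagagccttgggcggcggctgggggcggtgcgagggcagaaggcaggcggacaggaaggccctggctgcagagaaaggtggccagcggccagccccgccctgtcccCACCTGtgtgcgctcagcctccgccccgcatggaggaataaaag
Ltf, chr9:111019042-111019291, plus strand: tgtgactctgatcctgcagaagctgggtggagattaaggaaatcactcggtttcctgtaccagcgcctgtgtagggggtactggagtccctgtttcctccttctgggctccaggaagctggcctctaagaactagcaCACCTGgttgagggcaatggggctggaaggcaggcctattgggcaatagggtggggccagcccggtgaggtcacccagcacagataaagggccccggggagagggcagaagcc
Twist2, chr1:91801211-91801460, plus strand: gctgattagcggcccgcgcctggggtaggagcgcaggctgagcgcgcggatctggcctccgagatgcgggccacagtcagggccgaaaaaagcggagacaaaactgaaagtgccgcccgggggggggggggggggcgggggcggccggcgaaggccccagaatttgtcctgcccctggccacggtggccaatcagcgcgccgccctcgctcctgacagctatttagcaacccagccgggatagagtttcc
The match starts 9 bases before the start of Gjb2, 44 before that of Krt7 and 113 before that of Ltf, and Twist2 has none in this window. The letters occur in 16.1% of the 13336 tested genes that have such a window. Gjb2, Krt7 and Ltf were picked for having the motif, as the largest differences among 11 list members with it. Twist2 was picked as the stromal transcription factor with a window that had the largest called rise. The contrast between these promoters thus comes from how they were picked. Of the 35 epithelial, junction and luminal progenitor members that fell, 20 have a window, which is too few for a comparison of shares. A match describes the letters alone and is no evidence of binding.

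Within the epithelium, most luminal progenitor genes were lower. Of 18 measured, 9 fell and none rose, with a median of -1.33. The differences were negative for 15 and positive for 3, and 1 gene was higher without overlap. Summed over the list, the level was 24451 and 28160 units in heterozygous and 22849 and 23013 in homozygous cells, a much smaller shift than the median. Ltf, the gene of the iron-binding defence protein lactoferrin, measured 10.29 and 10.55 in heterozygous and 6.94 and 7.34 in homozygous FDG-low cells, without overlap. Its difference was -3.28 ± 0.32 (limma adjusted p = 0.0055) by the brightest probe and -0.56 by another. The retinaldehyde dehydrogenase gene Aldh1a3 measured 10.33 and 10.70 against 8.05 and 8.37, and the lipocalin gene Lcn2 measured 10.38 and 10.65 against 8.19 and 8.27. The κ-casein gene Csn3 fell by 2.76 ± 0.41 on the log2 scale and Wfdc18 by 2.74 ± 0.40. Elf5, the transcription factor of the alveolar lineage, was below background on both homozygous arrays and was not called (limma adjusted p = 0.073).

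Hormone-sensing luminal genes fell in 7 of 17 measured cases, none rose, and the median was -0.65. Ptn, the gene of the growth factor pleiotrophin, measured 10.12 and 10.07 in heterozygous and 8.23 and 8.30 in homozygous FDG-low cells, a difference of -1.83 ± 0.10 (limma adjusted p = 0.0015). The fibroblast growth factor receptor gene Fgfr2 fell by 1.24. The luminal transcription factor gene Gata3 was at least 1.61-fold lower, and Tph1, which encodes an enzyme of serotonin synthesis, at least 3.59-fold lower, since both homozygous arrays were below background. The receptors that define the lineage were not called: the oestrogen receptor gene Esr1 differed by -0.48, and the progesterone receptor gene Pgr was below background on both homozygous arrays.

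Of 19 basal and myoepithelial genes measured 4 fell and none rose, although 18 of the differences were negative and the median was -1.06. The smooth muscle actin gene Acta2, a marker of myoepithelium and of vessel walls, measured 11.79 and 11.47 against 9.89 and 10.13 and fell by 1.62 ± 0.15 (limma adjusted p = 0.0054). Itga6, the laminin-binding integrin α6 gene, fell from 8.55 and 8.16 to 6.95 and 6.99. The basal keratin genes Krt5 and Krt14 differed by -1.24 and -0.92 and were not called. Here the 2 heterozygous arrays differed from each other, with list means of 8.58 and 7.97. The median of the list was -1.59 without heterozygous replicate 2, and between -1.59 and -0.78 with any single array of the 8 left out. The homozygous means, 7.32 and 7.38, lay below both.

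Milk genes split. Besides Csn3, the mucin gene Muc1 measured 8.55 and 9.05 in heterozygous and 6.15 and 6.48 in homozygous FDG-low cells and fell by 2.49 ± 0.35 (limma adjusted p = 0.014). Btn1a1, a gene of the milk fat globule coat, was at least 4.01-fold lower. The lipid droplet gene Plin2 rose by 1.26 and Xdh, the xanthine dehydrogenase gene, by 0.96. Of 11 milk genes measured, 2 rose and 3 fell, and the median was 0.01. That median includes 4 genes not above background on any of the 4 arrays, and among the other 7 it was -0.71.

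**Figure D2:**
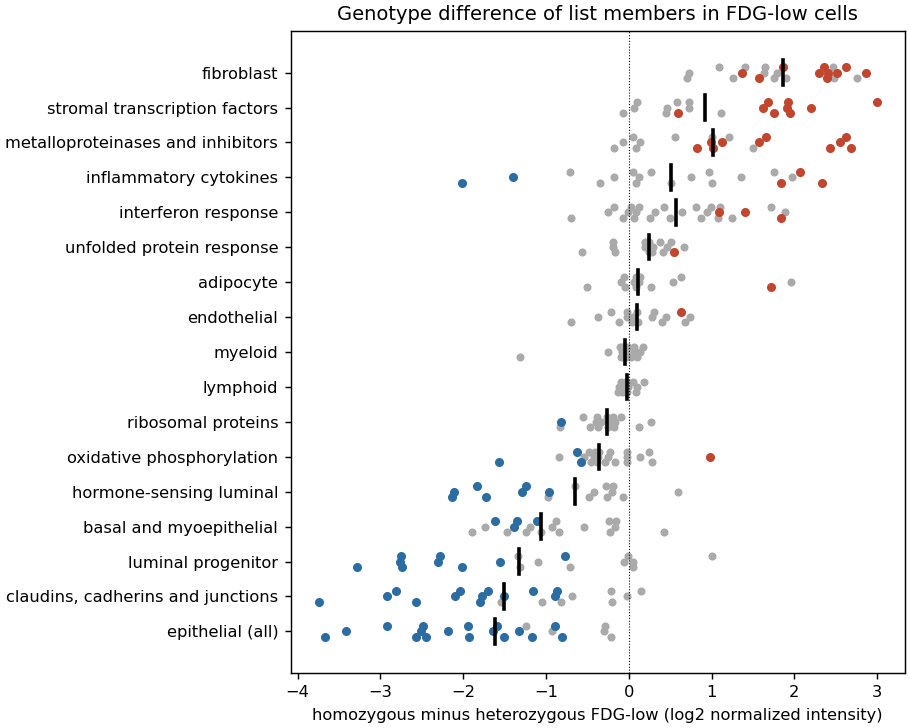
Each point is a gene of a list, placed by its log2 difference between homozygous and heterozygous FDG-low cells, red or blue where it passed the threshold and grey where it did not, with a black bar at the list median. Epithelial and junction lists lie to the left (medians -1.62 and -1.50) and the fibroblast list to the right (1.87).

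Genes of fibroblasts were higher in homozygous than in heterozygous FDG-low cells. All 23 measured members of the fibroblast list had a positive difference, with a median of 1.87, and 10 rose. The type VI collagen genes Col6a1 and Col6a2 rose by 2.52 ± 0.56 and 2.87 ± 0.58, and Mmp2, the gelatinase A gene, rose by 2.63 ± 0.41. Col6a2 measured 7.19 and 8.61 in heterozygous and 10.67 and 10.86 in homozygous FDG-low cells. Lum and Dcn, which encode small proteoglycans of collagen fibres, rose by 2.36 and 1.57. Pdgfra, the receptor gene that marks fibroblasts, measured 6.99 and 8.90 against 10.47 and 10.37. Its groups did not overlap, but the difference of 2.48 ± 0.62 was not called (limma adjusted p = 0.064). The fibrillar collagen genes Col1a1 and Col3a1 differed by 1.80 and 1.64 and were not called either.

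The 2 heterozygous arrays were unlike in this list, with means of 7.41 and 8.60, whereas the homozygous means were 9.90 and 9.92. Summed over the list on the linear scale, the heterozygous values were 5157 and 11851 intensity units and the homozygous ones 28402 and 29230. Without heterozygous replicate 2 the median difference was 2.66. The summed epithelial list ran the other way, from 18994 and 17725 units in heterozygous to 5204 and 5278 in homozygous cells. In sorted bulk samples, fewer cells of a type and less RNA per cell cannot be told apart. The plot of the epithelial against the fibroblast mean places both FDG-low groups outside the FDG-high arrays on the epithelial axis, at opposite ends. On the fibroblast axis the homozygous FDG-low arrays lie within the range of the FDG-high arrays, 9.24 to 10.17. The heterozygous FDG-low arrays lie below that range.

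**Figure D3:**
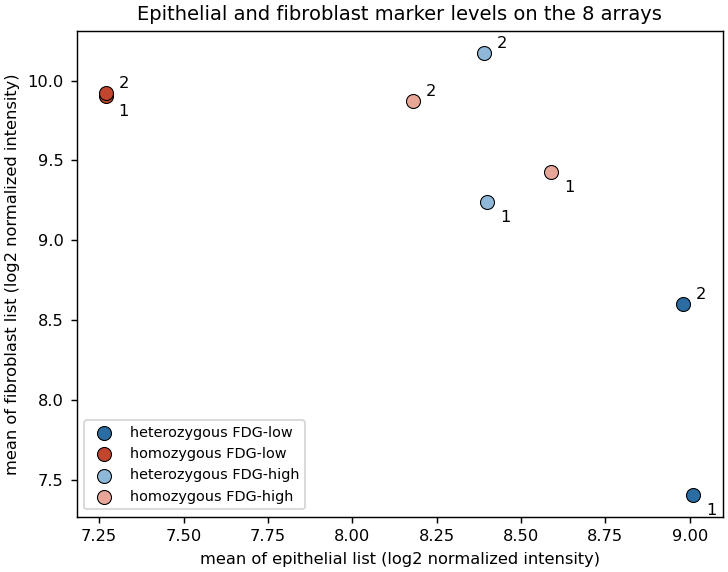
Each point is an array, with the mean log2 level of the epithelial list (x axis) and of the fibroblast list (y axis) and its replicate number. The homozygous FDG-low arrays lie at an epithelial mean of 7.27 and the heterozygous FDG-low arrays at 9.01 and 8.98, with the 4 FDG-high arrays between 8.18 and 8.59.

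Stromal transcription factor genes were higher as well. Of 18 measured, 9 rose, none fell and the median was 0.92. Twist2, a basic helix-loop-helix factor of dermal and stromal mesenchyme, measured 6.32 and 6.75 in heterozygous and 9.48 and 9.58 in homozygous FDG-low cells, a difference of 2.99 ± 0.35 (limma adjusted p = 0.0089). The zinc-finger repressor gene Zeb1 measured 7.24 and 7.31 against 9.24 and 9.20, and Zeb2 rose by 2.21 ± 0.45. Twist1 rose by 1.92, the paired-related homeobox gene Prrx1 by 1.75 and Snai1 by 0.59.

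The 15 largest called increases among genes whose groups do not overlap include Twist2 and Col6a2. Thbs2, the gene of the matricellular protein thrombospondin 2, led with 7.52 and 8.03 against 11.37 and 11.43, a difference of 3.63 ± 0.45 (limma adjusted p = 0.0094). Ch25h, which encodes cholesterol 25-hydroxylase, measured 6.55 and 6.68 against 10.31 and 10.05. The bone and matrix cathepsin gene Ctsk measured 6.28 and 7.16 against 9.61 and 9.77. The others on this side were Dipk1c, Rgcc, Tshz3, the thrombin receptor gene F2r, Atp8b1, the Wnt-induced matricellular gene Ccn4, Eno2, the glypican gene Gpc3, the apolipoprotein gene Apoe and Rnase4, with differences between 2.73 and 3.58. Ccn4, Gpc3 and Rnase4 had a second probe with a smaller difference, 1.17, 2.30 and 0.54.

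At the other end, Wnt7b, a Wnt ligand gene, measured 10.86 ± 0.20 in heterozygous and 7.15 ± 0.08 in homozygous FDG-low cells (mean ± SD, n = 2 arrays), a difference of -3.71 ± 0.14 and the lowest adjusted p of the named genes (limma adjusted p = 0.00083). A second Wnt7b probe, with a difference of -0.09, was above background on 1 of the 4 arrays and can show little. The RNA-binding protein gene Rbm47 measured 11.20 and 10.81 against 7.81 and 7.65 by its brightest probe, and its other 4 probes, above background on at most 2 of the 4 arrays, differed by -0.22 to -1.06. Wfdc12, of the whey acidic protein family, was below background on both homozygous arrays and at least 11.4-fold lower. Krt23 measured 9.56 and 9.84 against 6.42 and 6.53. Cytip, Mansc1, Rhov, the oxygen-sensing prolyl hydroxylase gene Egln3, Gdpd1, Nme7 and the adhesion molecule gene Ceacam1 made up the remainder, with differences between -3.54 and -3.01. Nme7 fell by 3.11 on its brightest probe, and by 2.94 on another that was above background on all 4 arrays. Its other 4 probes, between -0.44 and -0.04, were above background on at most 2 of the 4 arrays.

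Ceacam1 is also among the 15 protein-coding genes on either side of Axl. It measured 10.67 and 10.72 in heterozygous and 7.66 and 7.71 in homozygous FDG-low cells and its second probe differed by -2.74. It was the only one called of 26 neighbours measured, and the median difference of the neighbours was 0.02. In FDG-high cells Ceacam1 differed by 0.10.

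Matrix-degrading enzymes were higher too. Of 19 metalloproteinase and inhibitor genes measured, 10 rose, none fell and the median was 1.02. Mmp3, the stromelysin 1 gene, measured 8.62 and 9.35 in heterozygous and 11.77 and 11.56 in homozygous FDG-low cells. Mmp14, the gene of the membrane-bound activator of gelatinase A, measured 9.81 and 9.51 against 11.19 and 11.26. Mmp3 rose by 2.68 ± 0.38 and Mmp14 by 1.57 ± 0.22 (limma adjusted p = 0.014 for each). Mmp12, the macrophage elastase gene, stood at 6.08 and 6.11 and then at 8.63 and 8.67. Since both heterozygous values were below background it was at least 5.76-fold higher (limma adjusted p = 0.0010). The collagenase gene Mmp13 rose by 2.43 ± 0.28 on its brightest probe, with 1.31 on another and 0.36 on one that was above background on 1 of the 4 arrays. The inhibitor gene Timp3 rose by 1.02, whereas Timp1 and Timp2 differed by 1.21 and 1.50 and were not called.

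**Figure D4:**
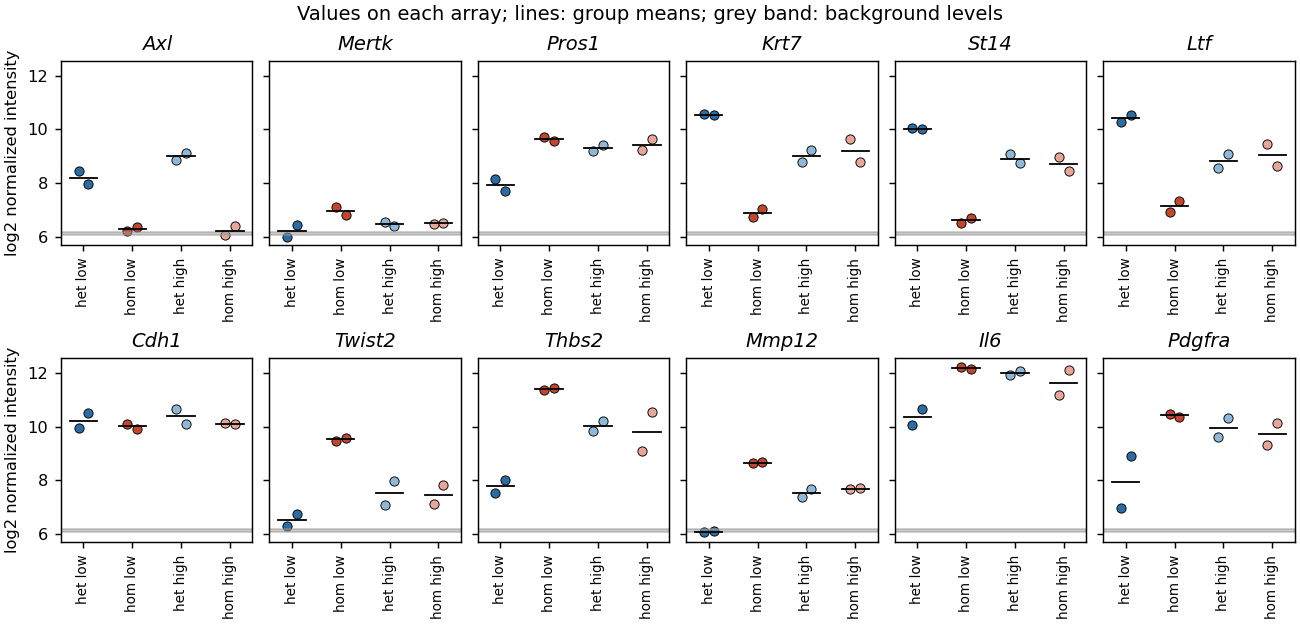
Log2 normalized intensity (y axis) of 12 genes on every array, by group, with a line at the group mean and a grey band at the background levels. Krt7, St14 and Ltf are highest in heterozygous and lowest in homozygous FDG-low cells, Twist2, Thbs2 and Mmp12 the reverse, and Cdh1 lies near 10 in all groups.

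Secreted signals changed in both directions. Of 19 inflammatory cytokine genes measured, 3 rose and 2 fell, with a median of 0.51. Il6 measured 10.04 and 10.66 in heterozygous and 12.23 and 12.14 in homozygous FDG-low cells and rose by 1.84 ± 0.33 (limma adjusted p = 0.026). The monocyte chemokine gene Ccl2 measured 9.10 and 10.10 against 11.63 and 11.70, and Ccl7 rose by 2.33. The lymphocyte chemokine gene Ccl5 went the opposite way, from 8.95 and 8.88 to 6.98 and 6.82, and Ccl20 was at least 1.92-fold lower, with both homozygous arrays below background. Of 26 interferon response genes, 3 rose (Cxcl10, Stat2 and Gbp2) and none fell, with a median of 0.57. The share called, 11.5%, was near the 8.4% of all genes. Their differences were positive for 21 and negative for 5, and 3 were lower without overlap. Cxcl10 measured 8.33 and 8.69 against 10.32 and 10.38, while Isg15 differed by 1.08 and was not called. Of 18 immediate-early genes, which respond to tissue dissociation, 1 was called, Klf6, which fell by 0.55. Their list mean was 8.83 and 9.51 on the heterozygous and 9.58 and 9.55 on the homozygous arrays, so 1 heterozygous array lay close to the homozygous ones.

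In the Wnt pathway, the secreted inhibitor genes Sfrp1 and Sfrp2 rose by 1.80 ± 0.21 and 1.88 ± 0.39, and the receptor gene Fzd1 rose by 1.45. Sfrp1 measured 6.82 and 6.65 against 8.68 and 8.39. Rspo1, which encodes an amplifier of Wnt signals, fell from 8.48 and 8.59 to 7.26 and 6.94. With Wnt7b that made 3 higher and 2 lower of 23 measured, and the median was 0.06. None of 16 Notch pathway genes was called by limma, and Notch2 had the largest difference among them, 0.67.

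Housekeeping and stress lists had medians nearer 0. Of 13 cholesterol synthesis genes, Fdps, Msmo1 and Nsdhl fell, by 1.37, 1.13 and 0.73, and Sqle rose by 1.04. A second Sqle probe, above background on all 4 arrays, differed by only 0.20. The other Nsdhl probes differed by -0.65, -0.54 and 0.07. Of 23 oxidative phosphorylation genes 3 fell and 1 rose, with a median of -0.36, and Ndufa4 went from 10.43 and 10.58 to 8.96 and 8.91. In the ribosomal protein list 1 of 17 fell and the median was -0.26. Of 17 proliferation genes Mcm6 fell by 0.93 and Rrm2 rose by 0.50. In the apoptosis list the death receptor gene Fas rose by 1.65, while Casp9 and Bcl2l1 fell by 0.97 and 0.61. Of 17 glycolysis and hypoxia genes, Adm, the gene of the vasodilator peptide adrenomedullin, rose by 2.33 while Egln3 and Pkm fell. The chaperone gene Hspa5 rose by 0.55 as 1 of 17 unfolded protein response genes, and of 16 lysosomal genes only Ctsk was called. Some of these lists were nonetheless one-sided. Differences were positive for 15 of 16 lysosomal and 13 of 17 unfolded protein response genes. They were negative for 19 of 23 oxidative phosphorylation and 15 of 17 ribosomal protein genes. The other lists here were more mixed, and all genes had 8345 positive and 8248 negative differences.

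Markers of other cells were counted beside these results. None of 18 myeloid genes was called, 15 of them were not above background, Ptprc and Itgam among these, and their summed intensity was 1130 and 1274 units in heterozygous and 1080 and 1072 in homozygous cells. None of 15 lymphoid genes was called and 13 were not above background, with sums of 968 to 973 and of 960 to 964 units. Of 17 endothelial genes only Tie1 was called, at least 1.42-fold higher, and the sums were 1490 to 1511 and 1642 to 1688 units. In the pericyte list of 12 genes, Pdgfrb was at least 1.39-fold higher and Acta2 lower, and the sums were 5020 and 4206 against 2400 and 2594 units. Acta2, which is also in the myoepithelial list, makes up most of the heterozygous sums. Of the 12 differences in the pericyte list 8 were positive and 4 negative, with a median of 0.28. Of 14 adipocyte genes Pparg rose by 1.72 and was the only one called, while Adipoq, Plin1, Lep and Cidec were at background. The summed intensity of the adipocyte list was 1964 and 2689 against 4418 and 4046 units. Lpl, which was not called, measured 8.08 and 9.86 against 11.06 and 10.80 and makes up much of the homozygous sums. The β-globin genes Hbb-bt and Hbb-b2 rose by 1.41 and 0.84 among 7 erythrocyte genes, and the sums were 510 and 663 against 977 and 944 units. In the list of mast cell and eosinophil genes, Prg2 rose by 1.76 with the other 9 uncalled. Among Schwann cell genes Pmp22 rose by 1.43 and Mbp fell by 2.25 on 1 probe, with 0.14 and -0.13 on others that were above background on 1 and 3 of the 4 arrays. Of 14 skeletal muscle genes only Tnnt3 was called, at least 1.89-fold higher, and of 12 epidermal genes Dmkn and Sbsn fell by 1.48 and 1.12. The summed levels of the epithelial and fibroblast lists differed between the same arrays as the called genes. The part of any of these cell types in the other results was not tested.

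The genotype difference was then set beside that in FDG-high cells, which shares no array with it. There 0 genes (0%) were called by limma and 639 (3.85%) had an unadjusted p below 0.05. Even Axl, the disrupted gene, was not called in FDG-high cells, with a difference of -2.76 (limma adjusted p = 0.079). The count of 0 therefore does not show that the genotypes were alike in FDG-high cells. The 1397 genes called in FDG-low cells had a median absolute difference of 1.12 there and of 0.152 in FDG-high cells. Since they were selected for their FDG-low difference, a smaller value in the other gate is in part due to that selection. The sign was shared by 850 of them, and across all genes, which are not independent replicates, the 2 differences correlated at r = 0.133 (Spearman 0.131). That value, sign included, rests on single FDG-high arrays. It was -0.181 without homozygous replicate 2 and -0.06 without heterozygous replicate 1. It was 0.369 without homozygous replicate 1 and 0.267 without heterozygous replicate 2. The list medians in FDG-high cells were 0.06 for epithelial, -0.05 for junction and -0.04 for fibroblast genes.

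A direct test of the difference between the gates, the interaction, called 135 genes (0.814%), each of them also called in FDG-low cells with the same sign. The interaction contains the FDG-low difference itself, so this overlap and shared sign were largely fixed in advance and add no support. In 96 (0.579%) the genotype difference was lower in FDG-low than in FDG-high cells, and in 39 (0.235%) it was higher. Wnt7b had the largest interaction, -3.99, followed by Krt7, Nme7, Ltf and Rbm47, and on the other side stood Mmp13, Dennd2a, Il17rd, Gpr176 and Mmp12. Krt7 measured 8.81 and 9.22 on the heterozygous and 9.65 and 8.78 on the homozygous FDG-high arrays, which overlap. Of 22 epithelial genes 8 had a called interaction, and of 23 fibroblast genes 0. Some fibroblast genes had large but imprecise interactions, such as 2.80 ± 0.82 for Col6a2 and 2.54 ± 0.58 for Mmp2. The count of 0 therefore does not show that their genotype difference was alike in both gates. The interaction count was 0 without either homozygous and 1 without either heterozygous FDG-low array. It was 13 without heterozygous FDG-high replicate 2, 42 without homozygous FDG-high replicate 1 and 328 without homozygous FDG-high replicate 2.

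**Figure D5:**
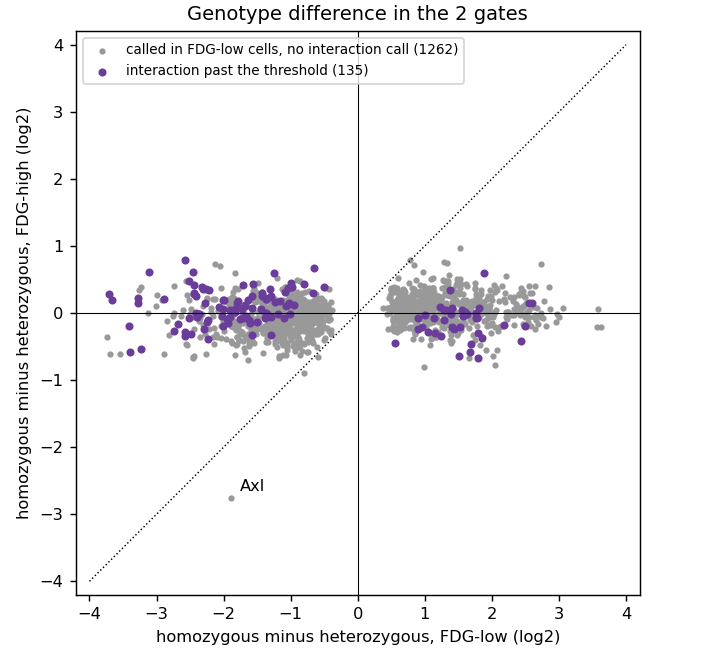
Each point is 1 of the 1397 genes called in FDG-low cells, with its log2 genotype difference there (x axis) and in FDG-high cells (y axis), and purple marks the 135 with a called interaction. Nearly all points lie close to 0 on the y axis, and Axl, at -1.89 and -2.76, stands apart.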

How the data were processed

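The deposited values are linear probe intensities of 25697 probes, per the value table itself. The study's own normalization is stated as log2 quantile values, per the labels, but the deposited intensities were not on that scale, so normexp background correction (offset 50), quantile normalization over the 8 arrays and log2 transformation were applied with limma 3.58.1 in R 4.3.3. The labels name a whole-genome array type, whereas the number of probes and the array positions fit a smaller format. The planned test had assumed log2 values and was kept. Folds are on the offset scale, which understates dim genes. The brightest of a gene's probes stood for it (4777 of 16593 genes had several), named from the platform annotation, of whose 23978 named probes 23962 matched GRCm38.p6. Background was the 95th percentile of 1326 odorant, vomeronasal and trace amine receptor probes per array. Where both arrays of a group were below it, the fold is a bound against the higher of the gene's own level and the lowest level above background. A coefficient per group was fitted over 8 arrays (4 residual and 2.4 prior degrees of freedom) and tested two-sided. The number of arrays limits the precision. Genes were named by a rule: the TAM genes, the 15 largest called, non-overlapping, above-background differences per direction, up to 6 members per list with the largest differences, and the 5 largest called interactions per direction. List members outside it were named after their values were seen. Members and lists were chosen with earlier results of these data known.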

Additional observations from a re-analysis of the deposited data

Results flagged for a closer look

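The interaction test of genotype and gate called 135 genes, meaning that the genotype difference of FDG-low cells differed from that of FDG-high cells. Among the named genes whose interaction was called, the interaction, as a log2 value of the FDG-low minus the FDG-high genotype difference, was lowest for Wnt7b (-3.99), Krt7 (-3.87), Nme7 (-3.72), Ltf (-3.50), Rbm47 (-3.43), St14 (-3.21) and Krt19 (-3.06). Other luminal and epithelial genes with a called negative interaction were Mansc1 (-2.80), Krt23 (-2.69), Aldh1a3 (-2.66), Lcn2 (-2.43), Pkp3 (-2.29), Esrp1 (-2.17), Ptn (-1.89), Spint2 (-1.86), Grhl2 (-1.79) and Itga6 (-1.31). Mbp (-2.11), Ccl5 (-1.97) and Ndufa4 (-1.24) were called in the same direction. The interaction was positive for Prg2 (1.75), Mmp12 (2.40), Gpr176 (2.45), Il17rd (2.46), Dennd2a (2.68) and Mmp13 (2.85). With 2 arrays a group, none of these calls remained when either homozygous FDG-low array was left out.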

How the results depend on the processing

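All 1397 genes called kept their sign under each of 17 alternatives, which their selection on these same arrays largely fixed in advance. Leaving out single arrays moved the number of genes higher between 38 and 700, of genes lower between 83 and 785 and of interactions between 0 and 328. It moved the list medians between -1.74 and -1.59 (epithelial), -1.59 and -0.78 (basal), -1.81 and -1.06 (luminal progenitor), -0.85 and -0.51 (hormone-sensing) and 1.47 and 2.66 (fibroblast), and Axl between -2.14 and -1.65. The fits without an FDG-low array have fewer samples, and the lone array left is assumed to vary like the other groups. Without background correction the epithelial, luminal progenitor and hormone-sensing medians were -1.24, -1.01 and -0.41, and with an offset of 16 they were -2.14, -1.83 and -1.10. The epithelial median was -1.59 with median centring, -1.52 with the mean of all probes and -1.56 in a fit of the 4 FDG-low arrays alone. Interactions numbered 261 with the offset of 16, 259 among genes above background on at least 2 arrays and 276 when the variance followed an intensity trend. The cause of these shifts was not tested. Among single genes the sign turned only for uncalled differences near 0. With single arrays left out these ranged from -0.11 to 0.09 (Tyro3, also 0.01 with median centring), -0.51 to 0.08 (Cdh1), -0.18 to 0.06 (Adipoq, also 0.02), -0.06 to 0.19 (Ptprc, also -0.04), -0.04 to 0.09 (Itgam) and 0.00 to 0.13 (Lep). Between the 2 FDG-low groups, the differences between replicates 1 and 2 correlated at r = -0.046 across genes, so no pairing by replicate number was seen. A value near 0 cannot exclude that same-numbered samples were prepared together. Between the heterozygous FDG-high and FDG-low groups, which enter the interaction, this correlation was 0.398, and for the other pairs of groups between -0.022 and 0.071. With the replicate block 730 genes were higher and 764 lower, 51 and 66 interactions were called in the 2 directions, and of 150 named genes 6 lost and 6 gained a call. Dim genes near background have differences compressed by the offset.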

Other observations

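Gene families recognised by their symbols, chosen after their values were seen, add to the lists above. Of 38 Hox genes on the array, which encode positional transcription factors, 4 rose, 3 of them from the HoxC cluster, and none fell. Hoxc6 measured 6.24 and 6.42 in heterozygous and 8.91 and 8.84 in homozygous FDG-low cells, a difference of 2.55 ± 0.26 (limma adjusted p = 0.0066). Hoxc10 and Hoxc9 rose by 2.48 and 2.24 and Hoxa7 by 0.96. Among 7 IGF-binding protein genes, whose products hold insulin-like growth factors in the extracellular space, Igfbp2, Igfbp4 and Igfbp6 rose, by 1.01, 2.49 and 2.56, while Igfbp3 fell by 1.35. The heterozygous arrays were far apart for Igfbp6, 6.09 and 7.31, beside 9.27 and 9.24 in homozygous cells.

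Laminin, collagen and integrin genes include calls in both directions. The laminin genes Lama2, Lamc1 and Lamc3 rose, 3 of 8 on the array, Lamc3 from 6.69 and 6.92 to 9.27 and 9.58. Of 37 collagen chain genes 7 rose and 1 was lower. The type IV chains Col4a1 and Col4a2 rose by 1.78 and 1.95, and Col4a6 was at least 1.66-fold lower. Of 28 integrin genes, Itga5, the α chain of a fibronectin receptor, rose by 1.49, and Itga2, Itga6, Itgb6 and Itgb8 fell by 1.51, 1.38, 1.60 and 1.50. Itgb6, an epithelial integrin chain, measured 8.92 and 9.10 in heterozygous and 7.57 and 7.24 in homozygous FDG-low cells. The shares of all genes called higher and lower were 3.79% and 4.63%.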
